A study of Mus musculus with 16 samples.

Results

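The matrix metalloproteinases Mmp2, Mmp3, Mmp12, Mmp13, Mmp14 and Mmp19 and the tissue inhibitors of metalloproteinases Timp1, Timp2 and Timp3 were followed by cell type and genotype in single-cell RNA-Seq of mineralizing bone marrow stromal cell cultures. These 9 genes were chosen by name from the 32285 genes counted. Matrix metalloproteinases are zinc-dependent enzymes that cut collagens, proteoglycans and other matrix proteins outside the cell, and most are secreted as inactive proenzymes. Timps bind the active site of these enzymes and block it, so that matrix turnover depends on both sides of the balance. In bone, collagenase and gelatinases from osteoblasts, osteocytes and osteoclasts remodel the type I collagen matrix, and macrophages contribute enzymes of their own.

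The cells were bone marrow stromal cells of 12-week-old C57BL/6J mice, grown for 21 days in osteogenic medium with ascorbic acid and 10 mM β-glycerophosphate, which supplies phosphate for mineralization, and sorted as live cells. The 4 genotypes were WT, Fgf23cKO, Dmp1KO and Dmp1KO/Fgf23cKO. Dmp1 encodes dentin matrix protein 1, a bone matrix protein, and was deleted in every cell of the Dmp1KO mice. Fgf23 encodes a phosphate-regulating hormone of bone, and in Fgf23cKO mice its floxed first exon was removed by a Cre recombinase under the Dmp1 promoter, which is active in mature osteoblasts and osteocytes. As the study describes its mice, WT and Dmp1KO carried the same floxed Fgf23 alleles without Cre, so floxed Fgf23 was shared by all 4 genotypes and Cre only by the Fgf23cKO and Dmp1KO/Fgf23cKO mice. Each genotype was run in 1 droplet reaction that pooled 3 cultures carrying oligonucleotide tags, so differences between genotypes and those between reactions cannot be told apart. Sums per tagged culture were the replicates: 3 for WT, Fgf23cKO and Dmp1KO/Fgf23cKO and 2 for Dmp1KO, whose culture 1 was not analysed here. The numbers 2 and 3 name the Dmp1KO cultures in the text.

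In all, 17793 cells were counted, 14577 of them in the 11 tagged cultures and 3216 without a tag. Only 35 barcodes occurred in more than 1 sample, 0 of them within a genotype. Tagged cultures held 470 to 2825 cells and 9518928 to 72482185 UMIs (unique molecular identifiers, each counting 1 captured RNA molecule). Median UMIs per cell were 7137 to 7275.5 in WT, 20016.5 to 22186 in Dmp1KO, 29752.5 to 34988 in Fgf23cKO and 32378 to 33881 in Dmp1KO/Fgf23cKO cultures. Cells in which mitochondrial genes gave at least 20% of the UMIs made up 3.42 to 7.28% of a culture in WT and 3.398 to 5.94% in Dmp1KO, but 16.3 to 16.6% in Fgf23cKO and 12.2 to 14.5% in Dmp1KO/Fgf23cKO. WT culture 1 stood apart in its tags: its cells had 3 different leading tags, and the leading tag gave a median of 83.4% of a cell's tag counts, against 1 leading tag and 91.1 to 99.3% in the other 10 cultures. Without it, 26 instead of 27 member values passed the threshold in macrophage-like cells, 9 instead of 8 in stromal cells, 12 instead of 14 in osteoprogenitor-like cells, 5 instead of 6 in pre-osteoblast-like cells and 15 instead of 17 in whole cultures, and the lost values of members not read as background are given beside the results. Dmp1 itself gave 442 to 1770 UMIs per culture in WT, 152 to 1177 in Fgf23cKO, 0 to 3 in Dmp1KO and 26 to 76 in Dmp1KO/Fgf23cKO. Osteoblast/osteocyte-like cells, named below, made up 0.0708 to 0.252% of the cells in Dmp1KO, 1.81 to 3.72% in Dmp1KO/Fgf23cKO and 1.26 to 3.24% in WT. In the Dmp1KO counts, deletion of Dmp1 and few such cells cannot be told apart. Fgf23 gave 0 to 8 UMIs and could not check its own deletion. Levels are given as CPM, the UMIs of a gene scaled to a total of 1000000 UMIs in the named cells. They come from the 3′ ends of transcripts and are not divided by gene length, so levels were compared between cells and cultures and not between genes.

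Mmp13, Mmp12 and Mmp3 lie close together on mouse chromosome 9, on the forward strand, and in these cultures their RNA came from different cells or was close to absent. Mmp13 spans 7272514 to 7283331, Mmp12 spans 7344381 to 7369499 and Mmp3 spans 7445822 to 7455975 in GRCm38, so that 61.05 kb separate Mmp13 from Mmp12 and 76.32 kb separate Mmp12 from Mmp3. Mmp1b, on the reverse strand, lies between Mmp12 and Mmp3 and overlaps the annotated end of Mmp12. Their promoters are shown because these 3 neighbors differed in cell source. Each is the 250 bases before a transcript start (RefSeq, GRCm38.p6, forward strand), with matches to the AP-1 motif TGANTCA on either strand and to the TATA motif TATAAA on the forward strand in capitals. Mmp13 is chr9:7272264-7272513. Mmp12 has 2 annotated starts, the first after chr9:7344147-7344396 and the second after chr9:7347124-7347373, which lies within an intron of the longer Mmp12 transcripts. Mmp3 is chr9:7445572-7445821. Counts from 3′ ends cannot tell the 2 Mmp12 starts apart.
Mmp13: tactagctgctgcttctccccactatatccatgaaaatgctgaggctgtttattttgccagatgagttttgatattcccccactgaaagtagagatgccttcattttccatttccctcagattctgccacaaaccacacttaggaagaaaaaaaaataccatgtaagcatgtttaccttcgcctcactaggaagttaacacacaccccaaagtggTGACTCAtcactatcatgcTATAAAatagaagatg
Mmp12, first start: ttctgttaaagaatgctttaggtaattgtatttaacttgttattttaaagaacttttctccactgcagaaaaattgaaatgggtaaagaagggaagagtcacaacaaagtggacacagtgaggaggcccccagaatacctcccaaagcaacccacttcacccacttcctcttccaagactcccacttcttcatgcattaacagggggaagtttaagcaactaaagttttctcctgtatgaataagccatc
Mmp12, second start: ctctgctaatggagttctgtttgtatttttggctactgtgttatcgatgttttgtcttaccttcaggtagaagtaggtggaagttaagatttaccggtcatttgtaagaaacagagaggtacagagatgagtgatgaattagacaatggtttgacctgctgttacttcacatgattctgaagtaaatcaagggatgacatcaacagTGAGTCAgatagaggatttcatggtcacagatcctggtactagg
Mmp3: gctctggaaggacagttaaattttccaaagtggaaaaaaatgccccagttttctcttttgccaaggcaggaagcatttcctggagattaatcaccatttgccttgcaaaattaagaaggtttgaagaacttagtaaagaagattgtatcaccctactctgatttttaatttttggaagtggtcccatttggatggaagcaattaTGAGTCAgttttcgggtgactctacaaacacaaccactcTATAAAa

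The AP-1 motif began 35 bases before the start in Mmp13, 44 bases before the second start of Mmp12 and 46 bases before the start in Mmp3. A TATA motif began 16 bases before the Mmp13 start and 7 bases before the Mmp3 start. Neither motif occurred before the first Mmp12 start or in the promoters of Mmp14, Timp1, Timp2 and Timp3, whereas 1 or 2 GC boxes (GGGCGG, either strand) did occur in each of those 4. Over 32851 promoters of the same length, 6.75% held the AP-1 motif, 7.59% the TATA motif and 32.7% a GC box. The table of promoters held 7 of the 9 genes and not Mmp2 and Mmp19. A match is a description of letters and not a measured binding site.

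The cells were grouped into clusters without the use of any Mmp, Timp, Adam or Adamts gene, and the clusters were named from marker genes. Of the tagged cells, 9041 were macrophage-like (6 clusters), 305 pre-osteoblast-like, 369 osteoprogenitor-like, 221 osteoblast/osteocyte-like, 249 osteoclast-like and 1291 cycling-like. The osteoprogenitor-like, pre-osteoblast-like and osteoblast/osteocyte-like cells are together called stromal. A further 1244 cells in clusters 5 and 14 carried all 14 macrophage markers but could not be named, because genes of stress or antigen presentation led them, and 1857 cells in 5 clusters stayed unnamed. Macrophage-like cells carried 14 of 14 macrophage markers with a summed level of 34140 to 47570 per culture. Stromal cells made up 2.73 to 4.14% of the cells in Dmp1KO, 3.32 to 8.71% in WT, 6.49 to 10.6% in Fgf23cKO and 8.67 to 13.6% in Dmp1KO/Fgf23cKO cultures. In Dmp1KO, only 2 and 7 cells per culture were osteoblast/osteocyte-like, so this class gave no Dmp1KO value.

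Macrophage-like cells were the main source of Mmp12, and stromal cells were the main source of Mmp13, Mmp2, Timp1 and Timp3. Pooled over the 11 cultures, macrophage-like cells held 70.0% of the Mmp12 UMIs, with 20.04% more in clusters 5 and 14 and 8.31% in cycling-like cells, and stromal cells held 0.434%. Stromal cells held 92.9% of the UMIs of Mmp13, 79.3% of Mmp2, 95.5% of Timp1 and 95.7% of Timp3. For Mmp2 the stromal share ranged from 35.9 to 91.0% between cultures, and unnamed cells held 0.570 to 58.5%. The other 3 genes had both sources. Macrophage-like and stromal cells held 43.4% and 41.1% of Mmp14, 50.0% and 30.4% of Timp2, and 61.5% and 13.7% of Mmp19. These shares follow the number of cells and their RNA content as well as the level per cell.

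**Figure D1:**
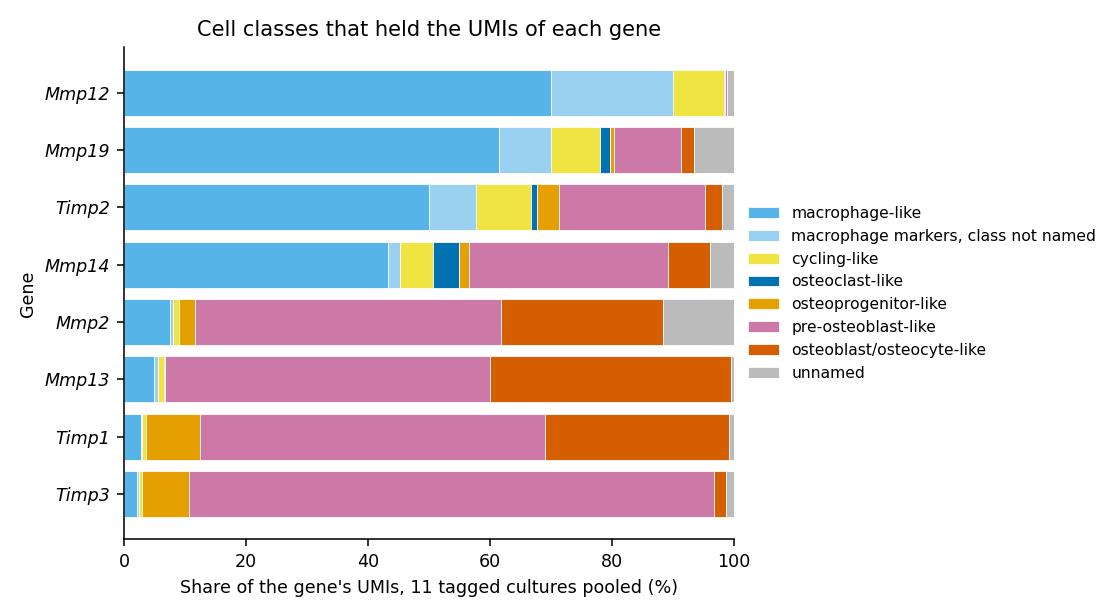
Share (%) of each gene's UMIs held by each cell class, with the 11 tagged cultures pooled, 1 bar per gene. Mmp12 lies almost wholly in cells with macrophage markers, Timp3 and Timp1 lie in stromal cells at 95.7% and 95.5%, and Mmp14 is split between macrophage-like and stromal cells at 43.4% and 41.1%.

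A low level in a cell type that does not transcribe a gene can come from free RNA in the droplets, and the marker genes of the other cell type give its size. In macrophage-like cells, the 12 stromal markers reached a median of 0.220 to 0.804% of their stromal level, depending on the culture, and the highest marker 1.28 to 8.38%. Mmp13 reached 0.319 to 1.71%, Mmp2 0.810 to 3.08%, Timp1 0.240 to 1.23% and Timp3 0.175 to 0.622% of its stromal level. Timp1 and Timp3 in all 11 cultures lay within the range of the markers of the same culture, and their level in macrophage-like cells is read as background. Mmp13 lay within that range in all but Dmp1KO culture 3, but above the median of the markers in all but Fgf23cKO culture 1. It reached 0.931 and 1.71% in Dmp1KO, beside medians of 0.292 and 0.239%. Its level in macrophage-like cells could not be told apart from background. Mmp2 lay above the median of the markers in all 11 cultures and above the highest marker in 4, the 3 Dmp1KO/Fgf23cKO cultures and Fgf23cKO culture 3. Mmp14 at 6.004 to 36.7%, Timp2 at 23.0 to 44.3% and Mmp19 at 55.4 to 118% lay far above them. In stromal cells, Mmp12 reached 0.718 to 10.9% of its macrophage-like level, where the 14 macrophage markers had medians of 5.45 to 13.5%, so the Mmp12 UMIs of stromal cells are read as background too.

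**Figure D2:**
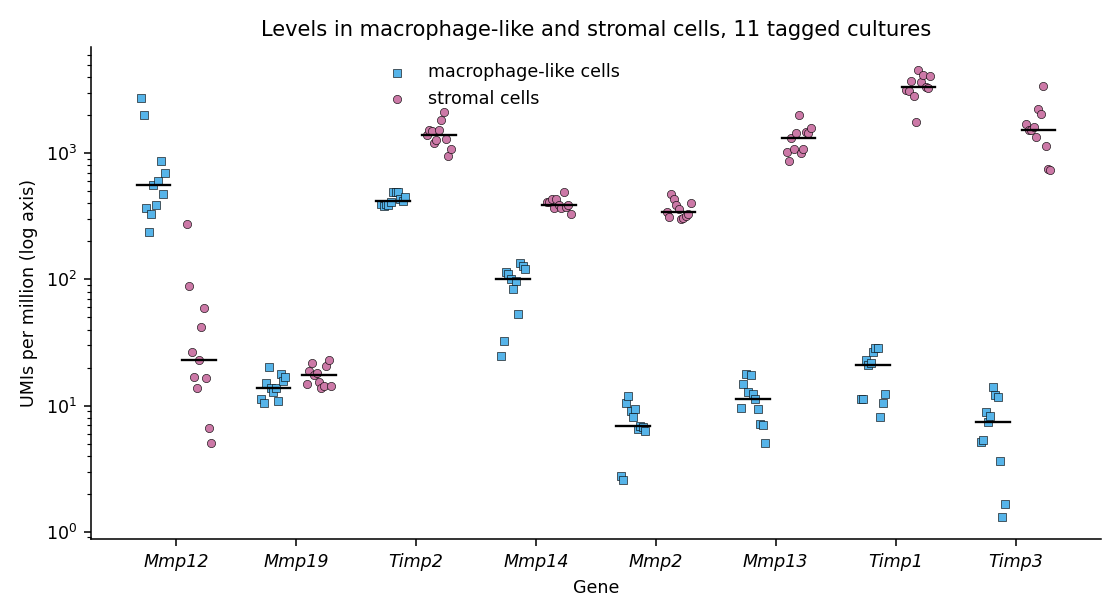
CPM (log axis) of 8 genes in macrophage-like and stromal cells, 1 point per tagged culture and a bar at the median of the 11 cultures. Mmp14 and Timp2 lie higher in the stromal cells of every culture, the 2 point clouds of Mmp19 overlap, and Mmp2, Mmp13, Timp1 and Timp3 lie far lower in macrophage-like than in stromal cells.

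Mmp12, also called macrophage metalloelastase, was the gene of the family with the widest range across genotypes. In macrophage-like cells it stood at 869, 475 and 700 CPM in the 3 WT cultures, 557, 387 and 602 in Fgf23cKO, 2718 and 2024 in Dmp1KO, and 371, 236 and 333 in Dmp1KO/Fgf23cKO. Both Dmp1KO cultures lay above every other culture, and all Dmp1KO/Fgf23cKO cultures lay below every WT culture. On the log2 scale Mmp12 rose by 2.08 ± 0.22 (SE) in Dmp1KO against WT (adjusted p = 5.435e-07) and fell by 1.16 ± 0.21 in Dmp1KO/Fgf23cKO against WT (adjusted p = 0.0002047). Between Dmp1KO/Fgf23cKO and Dmp1KO it fell by 3.24 ± 0.23 (adjusted p = 6.744e-09), and for Fgf23cKO against WT the change of -0.40 ± 0.20 missed the threshold of 0.1 (adjusted p = 0.1253). Clusters 5 and 14, which are outside this class, held 3.78% of the Mmp12 UMIs in WT, 32.4% in Fgf23cKO, 18.9% in Dmp1KO and 30.4% in Dmp1KO/Fgf23cKO. Under the alternatives, the Dmp1KO/Fgf23cKO value against WT ranged from -2.83 to -0.72. Cells with at least 1000 UMIs were then thinned to 1000 UMIs, and cells with fewer were left out. Of the Dmp1KO macrophage-like cells kept, 42.9% (95% exact Clopper-Pearson interval 41.2 to 44.6%) still held a Mmp12 UMI. The shares were 10.1% (9.14 to 11.2%) in WT, 12.2% (10.0 to 14.5%) in Fgf23cKO and 5.80% (4.69 to 7.09%) in Dmp1KO/Fgf23cKO. These intervals cover counting error only. The unthinned shares were 89.1%, 16.6%, 53.8% and 44.5%, at median depths of 21949.5, 7332.5, 35578 and 35357 UMIs. In stromal cells, where Mmp12 is read as background, the thinned shares in the same order were 13.2%, 0.372%, 2.26% and 1.90%, at median depths of 10202.5, 12865, 41477 and 20919 UMIs.

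The clusters that held the Mmp12 of macrophage-like cells differed between Dmp1KO and WT. In WT, 82.1% of the macrophage-like cells belonged to cluster 1 and 16.1% to cluster 7, and cluster 7, led by Slc7a11 and Procr, held 90.1% of their Mmp12 UMIs. In Dmp1KO, 42.7% belonged to cluster 3, led by Itgax, which held 95.4% of the Mmp12 UMIs. Cluster 3 also held 71.4% of them in Dmp1KO/Fgf23cKO, in only 31 cells, and 41.7% in Fgf23cKO, in only 15 cells. Cluster 3 was almost wholly Dmp1KO (96.5% of its cells), and cluster 1 almost wholly WT (97.8%). The 2 clusters each come from nearly 1 droplet reaction, and whether they are cell states or features of that reaction cannot be told apart. Without cluster 3, left out after these values were seen, the Dmp1KO value against WT was -1.23 in place of 2.08. The Dmp1KO/Fgf23cKO value against WT was then -2.83 in place of -1.16. That alternative takes away the main Dmp1KO and Dmp1KO/Fgf23cKO source of Mmp12. It leaves the main WT source, cluster 7, in place, so nothing is read from its direction. Markers of other cell types moved with this difference. Of 8 osteoclast markers 7 were detected, and their summed level in macrophage-like cells was 802 to 963 in Dmp1KO against 242 to 273 in WT, 228 to 256 in Fgf23cKO and 197 to 229 in Dmp1KO/Fgf23cKO. Of 6 adipocyte markers 5 were detected, at 330 to 404.5 in Dmp1KO against 73.9 to 103.6 in WT, and the 9 contractile markers of osteoprogenitors stood at 194 to 207 against 86.7 to 101.5. The 14 macrophage markers were lower in Dmp1KO, at 34140 to 35530 against 40460 to 43060 in WT. Their part in the Mmp12 and Mmp14 results was not tested.

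Within single clusters, the order of the genotypes for Mmp12 differed from cluster to cluster. In cluster 7, which all genotypes shared, Mmp12 stood at 4065, 2726 and 3395 CPM in WT, 3164, 1659 and 1985 in Fgf23cKO, 1089 and 991 in Dmp1KO, and 1002, 1967 and 601 in Dmp1KO/Fgf23cKO. Every WT culture lay above every Dmp1KO and Dmp1KO/Fgf23cKO culture. A fit of cluster 7 alone, made after these values were seen, gave -1.83 ± 0.33 for Dmp1KO against WT (adjusted p = 0.000861), where 17.9% of the 8529 genes tested passed the threshold, and -1.70 ± 0.28 for Dmp1KO/Fgf23cKO against WT (adjusted p = 0.0001861), where 27.3% passed. In cluster 3, Mmp12 stood at 4090 and 3664 in the 2 Dmp1KO cultures and at 8235 in the 16 cells of a Dmp1KO/Fgf23cKO culture. In cluster 0, led by Egr3 and F13a1, it stood at 177 and 145 in Dmp1KO and at 0 to 30.7 in all other cultures. The fit of cluster 0, made after the values were seen and with only 11 to 20 cells in each WT sum, gave 3.37 ± 0.55 for Dmp1KO against WT (adjusted p = 0.0001431, 10.7% of genes passed) and -2.84 ± 0.12 for Dmp1KO/Fgf23cKO against Dmp1KO (adjusted p = 2.913e-15, 25.5% passed). Stromal cells of those 2 Dmp1KO cultures, where Mmp12 is read as background, held 273 and 87.8 CPM at a median depth of 10202.5 UMIs, against 30021 in cluster 0, and the part of free RNA in the cluster 0 level was not tested. In cluster 2, Mmp12 stood at 273 and 280 in Dmp1KO, 161, 159 and 311 in Fgf23cKO, and 330, 137.5 and 222 in Dmp1KO/Fgf23cKO, and the -0.34 ± 0.24 for Dmp1KO/Fgf23cKO against Dmp1KO did not pass (adjusted p = 0.4047, 18.3% of genes passed). The unnamed cluster 5 held 2986 in Dmp1KO, 2603 in Fgf23cKO and 3257 in Dmp1KO/Fgf23cKO cells.

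**Figure D3:**
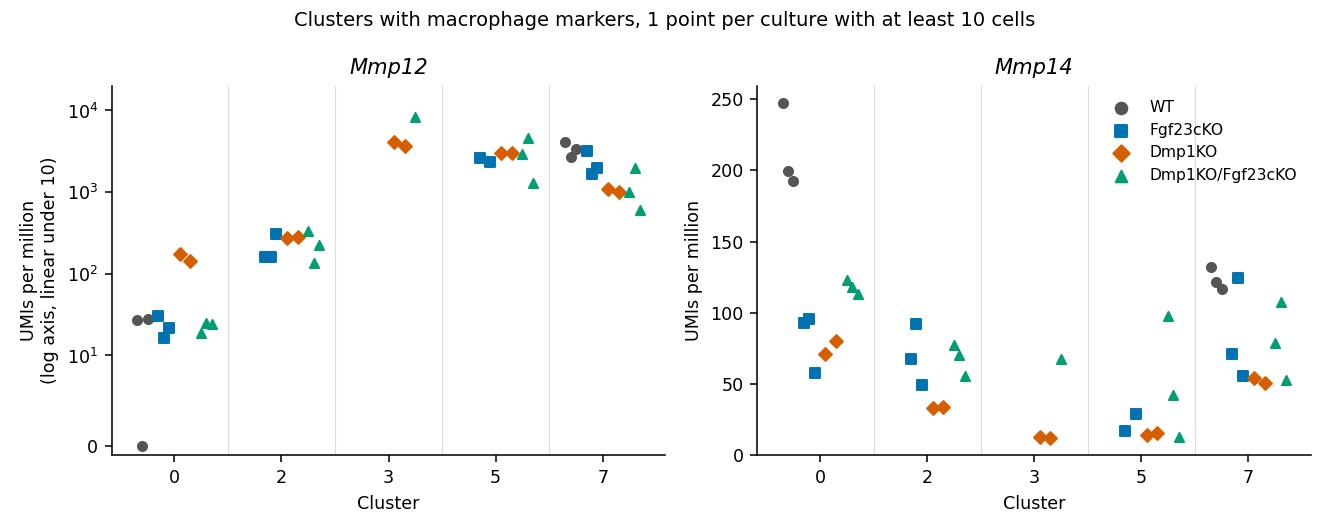
CPM of Mmp12 (log axis, linear under 10) and Mmp14 in 5 clusters with macrophage markers, 1 point per tagged culture with at least 10 cells of the cluster. For Mmp12 the WT cultures lie at 2726 to 4065 in cluster 7, above every Dmp1KO and Dmp1KO/Fgf23cKO culture, and cluster 3 is nearly empty of WT, Fgf23cKO and Dmp1KO/Fgf23cKO cells, whereas for Mmp14 the Dmp1KO cultures lie below the WT cultures in clusters 0 and 7.

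Mmp14, also called MT1-MMP, is anchored in the membrane, cuts collagen at the cell surface and activates pro-Mmp2. In macrophage-like cells it stood at 135, 129 and 121 CPM in WT, 83.6, 96.3 and 52.9 in Fgf23cKO, 24.6 and 32.2 in Dmp1KO, and 115, 111 and 102 in Dmp1KO/Fgf23cKO. Both Dmp1KO cultures lay below all others, and the Fgf23cKO cultures lay below WT and Dmp1KO/Fgf23cKO. Mmp14 fell by 1.91 ± 0.16 on the log2 scale in Dmp1KO against WT (adjusted p = 4.592e-08) and fell by 0.73 ± 0.14 in Fgf23cKO against WT (adjusted p = 0.0007431). It was 1.63 ± 0.16 higher in Dmp1KO/Fgf23cKO than in Dmp1KO (adjusted p = 2.456e-07), and the -0.28 ± 0.14 between Dmp1KO/Fgf23cKO and WT missed the threshold (adjusted p = 0.1106). Without cluster 3, in which Mmp14 stood at 12.8 and 12.3 in Dmp1KO, the Dmp1KO value against WT was -1.29. Mmp14 was also lower in Dmp1KO than in WT within clusters 0 and 7, though not in Dmp1KO alone. In cluster 0 it was 248, 199 and 192 in WT, in sums of only 11 to 20 cells, against 70.9 and 80.0 in Dmp1KO, and in cluster 7 it was 132, 122 and 117 against 54.3 and 50.5. The fits of these clusters gave -1.26 ± 0.29 (adjusted p = 0.00558) and -1.36 ± 0.29 (adjusted p = 0.003631), where 10.7% and 17.9% of the genes tested passed. In cluster 2, which held too few WT cells to compare, Mmp14 was 0.94 ± 0.17 higher in Dmp1KO/Fgf23cKO than in Dmp1KO (adjusted p = 0.0008136, 18.3% of genes passed). Against WT, Mmp14 was also lower in Fgf23cKO in cluster 0 (-1.12 ± 0.28, adjusted p = 0.01443) and cluster 7 (-0.74 ± 0.21, adjusted p = 0.02666). It was lower in Dmp1KO/Fgf23cKO in cluster 7 (-0.82 ± 0.22, adjusted p = 0.013), but -0.64 ± 0.26 in cluster 0 did not pass (adjusted p = 0.1702). Dmp1KO/Fgf23cKO against Dmp1KO passed in cluster 0 (0.62 ± 0.11, adjusted p = 0.0002118) and not in cluster 7 (0.54 ± 0.32, adjusted p = 0.5032).

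In the stromal sums, Mmp14 did not follow the macrophage-like pattern. It stood at 376, 389 and 330 CPM in WT, 387, 366 and 491 in Fgf23cKO, 410 and 412 in Dmp1KO, and 434, 369 and 435 in Dmp1KO/Fgf23cKO. The Dmp1KO cultures lay just above the WT cultures and within the ranges of the other 2 genotypes. No comparison in the stromal sums passed (log2 changes of 0.07 ± 0.12, 0.13 ± 0.11, 0.10 ± 0.11 and 0.03 ± 0.12). By stromal class, Mmp14 in WT was 617 ± 97.6 (SD, n = 3) in pre-osteoblast-like, 290 ± 82.0 in osteoprogenitor-like and 166 ± 40.2 in osteoblast/osteocyte-like cells, and in each of the 3 WT cultures the pre-osteoblast-like cells were highest. The stromal sum thus depends on the mix of these classes, given below for Timp3. Within classes, Dmp1KO against WT gave -0.31 ± 0.13 in pre-osteoblast-like cells (adjusted p = 0.17) and -0.84 ± 0.38 in osteoprogenitor-like cells (adjusted p = 0.2254). Neither passed. WT osteoclast-like cells, the bone-resorbing class that had enough cells only in WT, held 206, 244 and 248. In osteoprogenitor-like cells, Mmp14 was 1.51 ± 0.34 higher in Dmp1KO/Fgf23cKO than in Dmp1KO (adjusted p = 0.01405), at 291, 277 and 381 against 138 and 124, and this call was lost without Dmp1KO culture 2.

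Mmp19, a secreted metalloproteinase with basement membrane substrates, was low in all classes. In macrophage-like cells it stood at 17.6, 15.8 and 16.9 CPM in WT, 12.8, 13.8 and 10.9 in Fgf23cKO, 11.3 and 10.5 in Dmp1KO, and 15.1, 20.3 and 13.8 in Dmp1KO/Fgf23cKO. All Fgf23cKO and Dmp1KO cultures lay below all WT cultures. Mmp19 fell by 0.42 ± 0.15 in Fgf23cKO (adjusted p = 0.03176) and fell by 0.34 ± 0.14 in Dmp1KO (adjusted p = 0.0424) against WT. The Fgf23cKO call was lost without Fgf23cKO culture 3, and the Dmp1KO call without WT culture 3 or Dmp1KO culture 3. The value of 0.29 ± 0.13 for Dmp1KO/Fgf23cKO against Dmp1KO (adjusted p = 0.06121) became 0.10 without Dmp1KO/Fgf23cKO culture 2. In stromal cells, at 13.8 to 23.1, no comparison passed. The highest cluster for Mmp19 was the unnamed cluster 19, led by Tenm3 and Apod, with 86.0 CPM, and the same cluster was the highest for Mmp2, with 783.

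Timp2, which blocks active metalloproteinases and also bridges pro-Mmp2 to Mmp14 at the cell surface, moved little in the macrophage-like sums. It stood at 430, 422 and 447 CPM in WT, 490, 490 and 488 in Fgf23cKO, 395 and 379 in Dmp1KO, and 399, 390 and 411 in Dmp1KO/Fgf23cKO. The Fgf23cKO cultures were highest, and no Dmp1KO or Dmp1KO/Fgf23cKO culture reached a WT culture. Timp2 rose by 0.17 ± 0.05 in Fgf23cKO (adjusted p = 0.0109) and fell by 0.16 ± 0.05 in Dmp1KO/Fgf23cKO (adjusted p = 0.01136) against WT. For Dmp1KO the direction depended on the scaling: 0.10 ± 0.05 against WT with TMM factors (adjusted p = 0.09902) and 0.09 without WT culture 1, where the call was lost, but -0.16 with library totals alone, and -0.27 ± 0.05 against 0.05 for Dmp1KO/Fgf23cKO minus Dmp1KO. Library totals alone moved the median of all genes by -0.26 and 0.27 in these 2 comparisons. Both Dmp1KO values also turned without cluster 3, to -0.21 and 0.07. Within cluster 7, Timp2 stood at 428, 386 and 437 CPM in WT and at 233 and 243 in Dmp1KO. The fit of that cluster gave -0.93 ± 0.13 for Dmp1KO (adjusted p = 6.528e-05) and -0.43 ± 0.11 for Dmp1KO/Fgf23cKO (adjusted p = 0.006098) against WT. In cluster 0, the -0.02 ± 0.13 for Dmp1KO against WT did not pass (adjusted p = 0.9611).

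**Figure D4:**
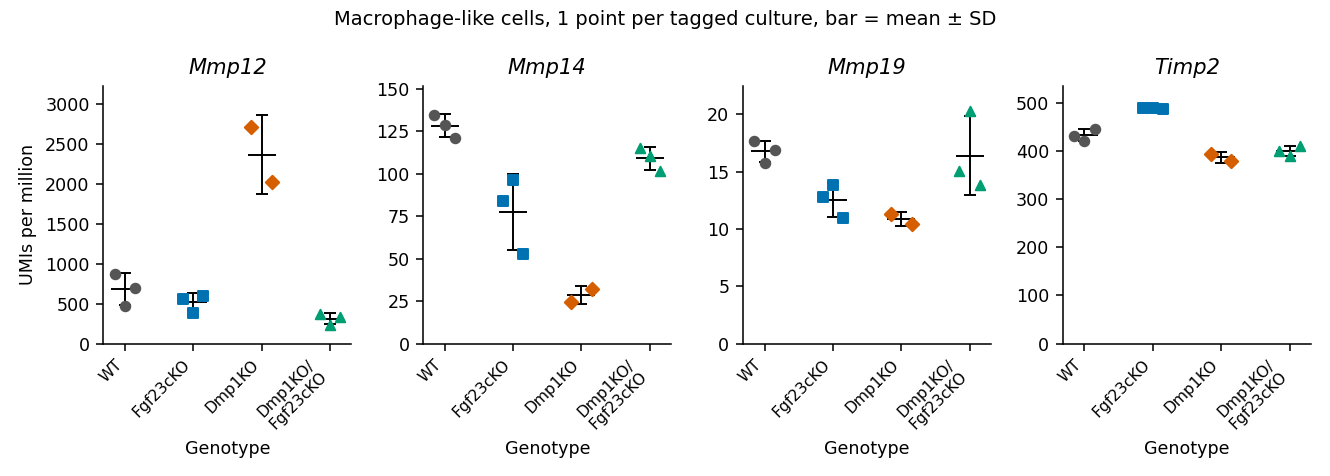
CPM of Mmp12, Mmp14, Mmp19 and Timp2 in macrophage-like cells, 1 point per tagged culture, with bars at the mean ± SD of 3 cultures per genotype (2 for Dmp1KO). The 2 Dmp1KO cultures lie above all others for Mmp12, at 2718 and 2024, and below all others for Mmp14, at 24.6 and 32.2, and the values are not divided by TMM factors.

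Counting all tested members in macrophage-like cells, 5 rose and 3 fell of 8 in Dmp1KO against WT, 4 rose and 2 fell in Fgf23cKO, 4 rose and 2 fell in Dmp1KO/Fgf23cKO, and 5 rose and 2 fell in Dmp1KO/Fgf23cKO against Dmp1KO. Mmp3 did not pass the filter on low counts. Of all 13131 genes tested there, 36.2% rose and 34.2% fell in the first of these comparisons (70.4% in all), 24.8% and 24% in the next (48.7%), 28.1% and 28.5% in the next (56.6%) and 30.8% and 37.5% in the last (68.3%). With such shares of all genes passing, nothing is read from the members' count. The median log2 changes of the 8 members were 0.23, 0.21, 0.28 and 0.31, beside 0.00, 0.00, 0.00 and -0.04 over all genes. Among the 8 are Timp1 and Timp3, whose level in these cells is read as background, and Mmp13, whose level could not be told apart from it. Mmp2, at 6.34 to 6.84 CPM in WT, 6.48 to 9.32 in Fgf23cKO, 2.56 to 2.76 in Dmp1KO and 8.98 to 11.9 in Dmp1KO/Fgf23cKO, fell by 1.05 ± 0.18 in Dmp1KO (adjusted p = 6.574e-05) and rose by 0.62 ± 0.15 in Dmp1KO/Fgf23cKO (adjusted p = 0.00214) against WT. The summed level of the 12 stromal markers in macrophage-like cells differed by genotype too, with 123 to 141 in WT, 199 to 208 in Fgf23cKO, 67.0 to 71.9 in Dmp1KO and 349 to 354 in Dmp1KO/Fgf23cKO. Its part in those 4 genes' values was not tested.

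Timp3, an inhibitor that binds to the extracellular matrix, had the largest changes in stromal cells among the members not read as background there. It stood at 1140, 747 and 741 CPM in WT, 2250, 2062 and 3424 in Fgf23cKO, 1692 and 1532 in Dmp1KO, and 1517, 1623 and 1334 in Dmp1KO/Fgf23cKO. No mutant culture fell to the level of a WT culture, and all Fgf23cKO cultures lay above every other. Timp3 rose by 1.51 ± 0.18 in Fgf23cKO (adjusted p = 0.0008417), by 0.78 ± 0.20 in Dmp1KO (adjusted p = 0.02055) and by 0.70 ± 0.18 in Dmp1KO/Fgf23cKO (adjusted p = 0.02391) against WT. The -0.08 ± 0.20 between Dmp1KO/Fgf23cKO and Dmp1KO did not pass (adjusted p = 0.8589). Without Dmp1KO culture 2 the Dmp1KO value was 0.74 and no longer passed. The share of cells with at least 20% mitochondrial UMIs was highest in the Fgf23cKO cultures too. Leaving out these cells and those with fewer than 500 genes was among 24 alternatives, and the Fgf23cKO call stood in all 24, at 1.01 to 1.69. The part of RNA quality in the Timp3 values was not otherwise tested.

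The stromal classes differed in Timp3 level, and the stromal sum depends on their mix. Pre-osteoblast-like cells held 86.1% of all Timp3 UMIs. In WT, Timp3 was 1587 ± 218 in pre-osteoblast-like, 825 ± 317 in osteoprogenitor-like and 265 ± 71.8 in osteoblast/osteocyte-like cells, and these ranges did not overlap. Pre-osteoblast-like cells gave 2.35 to 3.78% of a culture's UMIs in Dmp1KO, out of 2.91 to 4.79% for all stromal cells, and 2.35 to 7.83% out of 5.62 to 15.2% in WT. Within pre-osteoblast-like cells, Timp3 stood at 1839, 1464 and 1458 in WT, 3562, 3304 and 4135 in Fgf23cKO, 1731 and 1809 in Dmp1KO, and 2073, 3126 and 1757 in Dmp1KO/Fgf23cKO. The Fgf23cKO cultures again lay above all others, and the Dmp1KO cultures lay within the WT range. Timp3 rose by 1.26 ± 0.19 in Fgf23cKO (adjusted p = 0.003628), while the 0.19 ± 0.21 in Dmp1KO did not pass (adjusted p = 0.6375). The 0.55 ± 0.19 in Dmp1KO/Fgf23cKO (adjusted p = 0.08864) was 0.27 without culture 2 of that genotype and was lost without any 1 of 8 of the 11 cultures, WT culture 1 among them at 0.66. In osteoprogenitor-like cells, Timp3 rose by 1.47 ± 0.39 in Fgf23cKO (adjusted p = 0.03042) and by 1.93 ± 0.39 in Dmp1KO/Fgf23cKO (adjusted p = 0.002774) against WT, and the first of these was lost without WT culture 2 or Fgf23cKO culture 1. In osteoblast/osteocyte-like cells it was 195 to 338 in WT, 74.2 in the single Fgf23cKO culture with enough cells, and 2.31 to 94.8 in Dmp1KO/Fgf23cKO.

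Stromal Timp2 stood at 1295, 952 and 1073 CPM in WT, 1532, 1849 and 2126 in Fgf23cKO, 1401 and 1529 in Dmp1KO, and 1502, 1195 and 1283 in Dmp1KO/Fgf23cKO. It rose by 0.68 ± 0.13 in Fgf23cKO against WT (adjusted p = 0.008887), with every Fgf23cKO culture above every WT culture, and passed in no other comparison of the stromal sums. In osteoprogenitor-like cells Timp2 rose by 1.16 ± 0.28 in Fgf23cKO (adjusted p = 0.01982) and by 1.60 ± 0.28 in Dmp1KO/Fgf23cKO (adjusted p = 0.001033) against WT. The Fgf23cKO value was 0.86 and did not pass without WT culture 2. In pre-osteoblast-like cells no Timp2 comparison passed. WT levels were 1764 ± 257 in pre-osteoblast-like, 1436 ± 365 in osteoprogenitor-like and 516 ± 20.2 in osteoblast/osteocyte-like cells, where the first 2 overlapped and the last lay below both.

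Timp1, a secreted inhibitor of most soluble metalloproteinases, stood in stromal cells at 3376, 3298 and 4062 CPM in WT, 4588, 3679 and 4138 in Fgf23cKO, 3180 and 3097 in Dmp1KO, and 3715, 2854 and 1758 in Dmp1KO/Fgf23cKO. Both Dmp1KO cultures lay just below the WT cultures, the other 2 genotypes overlapped WT, and no comparison of the stromal sums passed. Osteoprogenitor-like cells differed. There Timp1 stood at 2573, 932 and 2288 in WT, 5760, 2819 and 5139 in Fgf23cKO, 3440 and 3668 in Dmp1KO, and 6350, 3841 and 4096 in Dmp1KO/Fgf23cKO, with every mutant culture above every WT culture. The rises against WT were 1.86 ± 0.35 in Dmp1KO/Fgf23cKO (adjusted p = 0.001612), 1.55 ± 0.35 in Fgf23cKO (adjusted p = 0.01318) and 1.18 ± 0.37 in Dmp1KO (adjusted p = 0.07263), and the last became 0.81 without WT culture 2. Scaling by library totals alone lowered the median of all genes in these osteoprogenitor-like comparisons by 0.32 to 0.63 on the log2 scale, and the Timp1 call of Dmp1KO was then lost at 0.84, as were those of Mmp2 in Dmp1KO/Fgf23cKO at 0.97 and of Timp3 in Fgf23cKO at 1.13. In pre-osteoblast-like cells Timp1 rose by 0.91 ± 0.30 in Fgf23cKO (adjusted p = 0.09039), a call that was lost without any 1 of 9 of the 11 cultures, WT culture 1 among them at 0.85. Markers of other cell types differed by genotype in osteoprogenitor-like cells. All 14 macrophage markers were detected there, with a summed level of 6979 to 19850 in WT, 2348 to 9955 in Fgf23cKO, 4587 to 12780 in Dmp1KO and 2641 to 7391 in Dmp1KO/Fgf23cKO cultures. Of the 6 adipocyte markers 4, 6, 3 and 4 were detected in the same order, at 82.1 to 346, 0 to 6234, 73.5 to 98.85 and 11.5 to 24.96. Their part in the osteoprogenitor-like values of Timp1, Timp2, Timp3, Mmp2 and Mmp14 was not tested.

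Mmp13, the interstitial collagenase of mouse bone, followed the later stromal classes. In WT it was 1435 ± 630 CPM in pre-osteoblast-like and 1696 ± 558 in osteoblast/osteocyte-like cells, which overlapped, and 55.7 ± 36.4 in osteoprogenitor-like cells, which lay below both in every WT culture. Stromal sums stood at 1465, 1442 and 1592 in WT, 2024, 1009 and 1070 in Fgf23cKO, 1021 and 864 in Dmp1KO, and 1314, 1072 and 1453 in Dmp1KO/Fgf23cKO. Both Dmp1KO cultures lay below all WT cultures. Mmp13 fell by 0.78 ± 0.27 in Dmp1KO against WT (adjusted p = 0.0632), and the call was lost without WT culture 2, WT culture 3 or either Dmp1KO culture. Within pre-osteoblast-like cells, the -0.49 ± 0.49 in Dmp1KO did not pass (adjusted p = 0.6036), at 1232 and 742 against 1221, 2145 and 940 in WT.

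Mmp2, gelatinase A, stood in stromal cells at 320, 331 and 400 CPM in WT, 360, 303 and 308 in Fgf23cKO, 340 and 314 in Dmp1KO, and 474, 433 and 392 in Dmp1KO/Fgf23cKO. The genotypes overlapped except that Dmp1KO/Fgf23cKO lay above Fgf23cKO and Dmp1KO, and no comparison of the stromal sums passed. The largest difference tested, 0.44 ± 0.15 for Dmp1KO/Fgf23cKO against Dmp1KO, had an adjusted p of 0.1051. In pre-osteoblast-like cells Mmp2 rose by 0.47 ± 0.14 in Dmp1KO/Fgf23cKO against WT (adjusted p = 0.05651), a call lost without WT culture 1, at 0.39, or 2 or without Dmp1KO/Fgf23cKO culture 1 or 2. In osteoprogenitor-like cells it rose by 1.60 ± 0.48 against WT (adjusted p = 0.02775), lost without WT culture 1, at 1.34, or 3, and by 1.98 ± 0.45 against Dmp1KO (adjusted p = 0.01693), lost without Dmp1KO culture 2. There WT stood at 68.4, 165 and 100.5, Dmp1KO at 56.02 and 76.3, and Dmp1KO/Fgf23cKO at 155, 144 and 385.

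Mmp3, stromelysin 1, was close to absent. It gave 8 UMIs over the 11 cultures, 6 of them in stromal cells and 0 in macrophage-like cells, where 0 UMIs allow up to 0.0700 to 0.540 CPM depending on the culture. Mmp3 was therefore not detectable in macrophage-like cells at this depth, and no genotype comparison of it was possible.

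**Figure D5:**
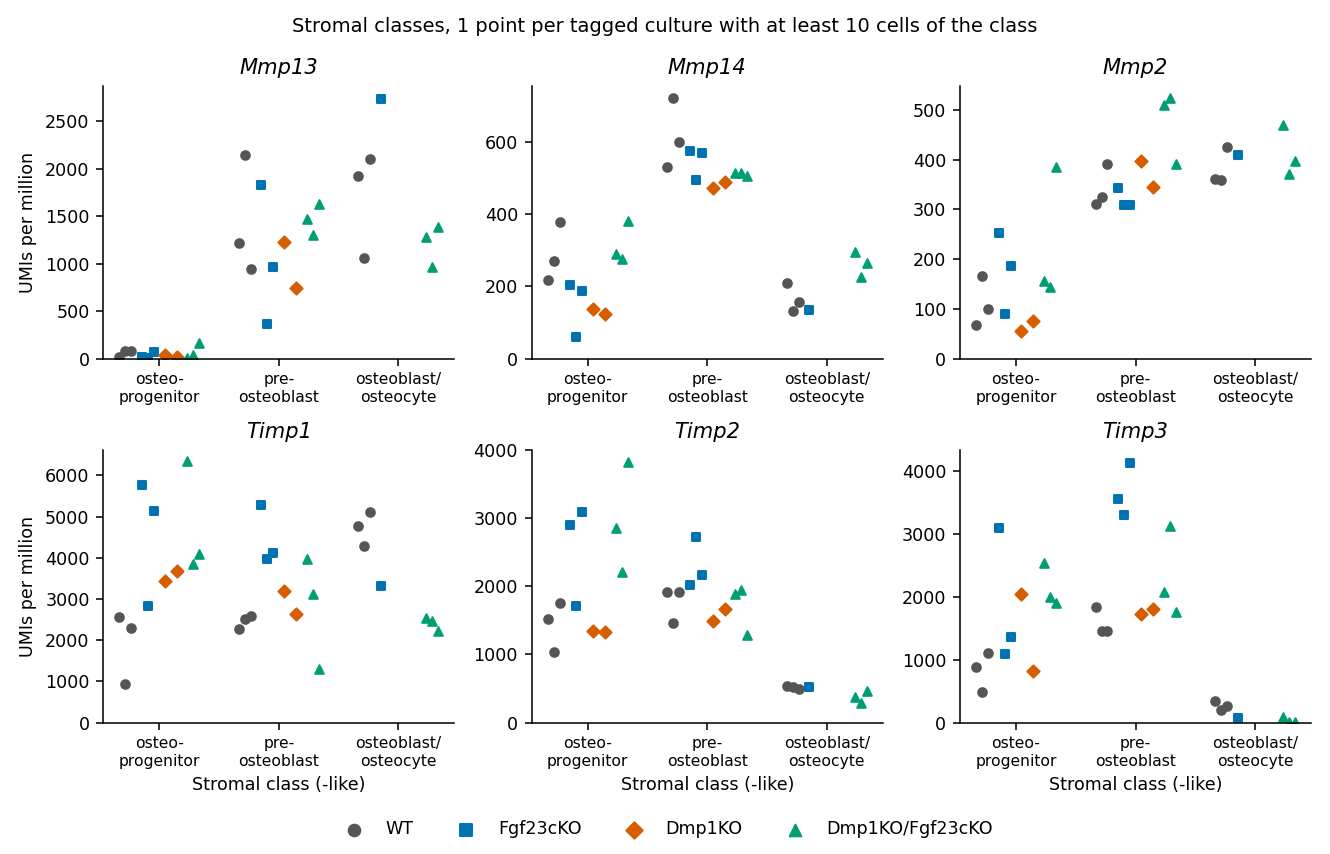
CPM of Mmp13, Mmp14, Mmp2, Timp1, Timp2 and Timp3 in 3 stromal classes, 1 point per tagged culture with at least 10 cells of the class. Mmp13 is low in osteoprogenitor-like cells of every culture, Timp3 of Fgf23cKO lies highest in pre-osteoblast-like cells, at 3304 to 4135, and Dmp1KO has no point in osteoblast/osteocyte-like cells.

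In the stromal sums, 2 members rose and 1 fell of 8 tested in Dmp1KO against WT, 3 rose in Fgf23cKO, 1 rose in Dmp1KO/Fgf23cKO, and 1 fell in Dmp1KO/Fgf23cKO against Dmp1KO. Of the 12435 genes tested, 11.2% rose and 13.8% fell in Dmp1KO against WT (25.0% in all), 7.51% and 8.06% in Fgf23cKO (15.6%), 9.68% and 11.4% in Dmp1KO/Fgf23cKO (21.1%), and 6.68% and 5.36% in Dmp1KO/Fgf23cKO against Dmp1KO (12%). Of these 8 calls, 3 belonged to Mmp12, whose stromal level is read as background: 16.6, 6.60 and 5.03 in WT, 23.1, 42.3 and 58.9 in Fgf23cKO, 273 and 87.8 in Dmp1KO, and 26.4, 16.7 and 13.7 in Dmp1KO/Fgf23cKO. The median log2 changes of the members were -0.07, 0.14, 0.14 and -0.02, beside -0.04, -0.03, 0.00 and 0.02 over all genes. In pre-osteoblast-like sums, 1 member rose in Dmp1KO, 2 in Fgf23cKO and 2 in Dmp1KO/Fgf23cKO against WT, and 1 fell in Dmp1KO/Fgf23cKO against Dmp1KO. Of the 11686 genes tested there, 6.35%, 6.22%, 8.35% and 0.984% rose and 6.74%, 5.67%, 8.55% and 0.839% fell in the same order, 13.1%, 11.9%, 16.9% and 1.82% in all. Both the member that rose in Dmp1KO and the member that fell were Mmp12, read as background. In osteoprogenitor-like sums, of 7 members tested, 2 rose in Dmp1KO, 3 in Fgf23cKO and 5 in Dmp1KO/Fgf23cKO against WT, and 3 rose and 1 fell in Dmp1KO/Fgf23cKO against Dmp1KO. Of the 4737 genes tested there, 5.59%, 7.52%, 15.4% and 6.12% rose and 3.08%, 5.34%, 11.9% and 2.85% fell, 8.68%, 12.9%, 27.4% and 8.97% in all. The median log2 changes of those 7 members were 0.21, 1.16, 1.60 and 1.39, beside -0.05, 0.03, 0.00 and -0.03 over all genes. Mmp12, also read as background here, is among the osteoprogenitor-like members that rose in Dmp1KO and Dmp1KO/Fgf23cKO against WT. It is also the member that fell in Dmp1KO/Fgf23cKO against Dmp1KO. Mmp12 in WT osteoprogenitor-like cells gave 0 UMIs, so its fitted changes there have no size.

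Sums over whole cultures hold all cell types, and in such sums fewer cells of a type and less RNA per cell cannot be told apart. In Dmp1KO against WT, Mmp12 rose by 2.38 ± 0.23 (adjusted p = 8.675e-06), and Mmp14 fell by 1.78 ± 0.18, Mmp13 fell by 1.68 ± 0.57, Mmp2 fell by 1.68 ± 0.29, Timp1 fell by 1.47 ± 0.49 and Mmp19 fell by 0.49 ± 0.15. Stromal cells gave 2.91 to 4.79% of the UMIs in Dmp1KO and 5.62 to 15.2% in WT. The Mmp13 and Timp1 calls were lost without Dmp1KO culture 2, at -1.45 and -1.16, and the Mmp19 call without Dmp1KO culture 3, at -0.38. In Dmp1KO/Fgf23cKO against Dmp1KO, Mmp2 rose by 2.17 ± 0.29, Mmp13 by 1.99 ± 0.57, Timp3 by 1.70 ± 0.44, Mmp14 by 1.69 ± 0.17 and Timp1 by 1.59 ± 0.49, and Mmp12 fell by 2.98 ± 0.23. Here too the Timp1 call was lost without Dmp1KO culture 2, at 1.31. In Fgf23cKO against WT, Timp3 rose by 1.83 ± 0.39, Timp2 rose by 0.41 ± 0.07, and Mmp19 fell by 0.41 ± 0.14, which was lost without any 1 of 4 WT and Fgf23cKO cultures, WT culture 1 among them at -0.35. Of all 15502 genes, 32.9% rose and 32.3% fell in Dmp1KO against WT (65.2% in all), 28.7% and 37.1% in Dmp1KO/Fgf23cKO against Dmp1KO (65.8%), and 21.3% and 23.3% in Fgf23cKO against WT (44.6%). In Dmp1KO/Fgf23cKO against WT 24.3% rose and 27.3% fell (51.6%), and Timp3 rose by 1.22 ± 0.39 and Mmp12 fell by 0.60 ± 0.20. The last was lost without WT culture 1, at -0.49, or Dmp1KO/Fgf23cKO culture 3, at -0.50. The threshold was an adjusted p under 0.1 throughout.

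Other genes of matrix breakdown also divided by cell type. Among other metalloproteinases, Mmp16, of the membrane type, stood at 46.0 to 194 CPM in stromal cells and Mmp23 at 166 to 299, against at most 0.587 and 2.55 in macrophage-like cells. Mmp27 at 5.72 to 27.5 and the neutrophil collagenase Mmp8 at 7.996 to 12.6 were higher in macrophage-like cells, Mmp27 in all 11 cultures and Mmp8 in all but 1. Reck, a membrane-anchored inhibitor of metalloproteinases, stood at 13.8 to 28.9 in stromal and at most 0.384 in macrophage-like cells. Of the cathepsins, lysosomal proteases, 7 of 8 were higher in macrophage-like cells of every culture, and Ctsk, the collagen-degrading protease of osteoclasts, was higher in stromal cells of 9 of 11 cultures. Ctsk, which is also 1 of the osteoclast markers, rose by 2.44 ± 0.20 in Dmp1KO macrophage-like cells against WT (adjusted p = 2.023e-08).

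Against WT, 6 cathepsins rose and 2 fell of 8 in Dmp1KO macrophage-like cells (median log2 change 0.45), among them Ctsl at 2.17 ± 0.12, and 4 of 9 genes of activation and uptake rose and 3 fell (median 0.55). Of those, Plaur, the urokinase receptor, rose by 1.61 ± 0.11, and Plau, the urokinase that starts the plasmin cascade, by 0.96 ± 0.10. Of 4 other metalloproteinases tested there, Mmp9, gelatinase B, fell by 2.38 ± 0.39, Mmp27 fell by 1.66 ± 0.14 and Mmp8 rose by 0.33 ± 0.13. Mmp9 was very low in macrophage-like cells, at 0.140 to 2.34 CPM, and was the leading gene of the osteoclast-like cluster 15. Osteoclast-like cells gave 6.255 to 8.435% of the UMIs in WT and 0.146 to 0.151% in Dmp1KO. The part of free RNA in the Mmp9 value was not tested. In stromal cells of Dmp1KO, 6 of 14 ADAM and ADAMTS proteases fell and 0 rose (median -0.28), with Adamts15 at -3.63 ± 0.87, Adamts9 at -1.82 ± 0.50 and Adam12 at -1.65 ± 0.50. Of 10 matrix substrates 5 fell and 1 rose (median -0.60), with Col1a1, the main collagen chain of bone, at -2.43 ± 0.33. Within pre-osteoblast-like cells 0 of 10 substrates fell and 0 rose (median 0.41), and 3 of 14 ADAM and ADAMTS genes fell (median -0.33). In osteoprogenitor-like cells 0 of 9 substrates fell and 1 rose (median -0.51), and 1 of 7 ADAM and ADAMTS genes fell (median -0.89). The stromal sums depend on the mix of classes here too. In Dmp1KO/Fgf23cKO against Dmp1KO, 5 of the 14 ADAM and ADAMTS genes rose and 0 fell in stromal cells (median 0.33), and 4 of 10 substrates rose and 0 fell (median 0.48). By class, 0 of 10 substrates rose in pre-osteoblast-like and 7 of 9 in osteoprogenitor-like cells, and 0 fell in either. The backgrounds are those given above for the same comparisons.

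Over the 20 clusters with at least 50 cells, the genes whose level was most like that of a member, by Pearson r of log2(CPM + 1), were Il7r (0.958), Lgals3 and Itgax for Mmp12, Tnfrsf19 (0.980), Alpl and Ptprd for Mmp13, and Mxra8 (0.986), Cdh2 and Col5a2 for Mmp2. For the inhibitors they were Pcolce (0.993), Shox2 and Bgn for Timp1, Ddah1 (0.914), H2afj and Ifitm3 for Timp2, and Prkg2 (0.977), Mfap5 and Nbl1 for Timp3. For Mmp14 they were Epn2 (0.958), Pmepa1 and Smad5, and for Mmp19 Micall1 (0.910), Tacc2 and Smurf1. Between members, r was 0.906 for Mmp2 with Timp1 and 0.903 for Timp1 with Timp3, but 0.001 for Mmp12 with Mmp19 and -0.638 for Mmp12 with Mmp14. Clusters share libraries and free RNA and differ in depth, so these values are descriptions.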

How the data were processed

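The samples were 10x 3′ single-cell libraries of 16 GEO entries, 15 of them with a matrix. Per the study's methods, the authors separated the tagged cultures with Cell Ranger 7.0.1, aligned to mm10, and used Seurat. The deposited values were raw UMI counts per gene and cell, not normalized. Samples 1 to 3 of a genotype were tagged cultures. Sample 4, cells without a tag, entered only an alternative. The study describes 3 mice per genotype, but the labels do not tie a culture to a mouse, and p-values measure the spread between these cultures. WT culture 1, whose cells had mixed tags, was kept and was left out in an alternative.

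The authors removed cells with several tags, no doublet caller was run here, and no cell was filtered out. Cells were clustered with Seurat 5.3.0 and sctransform 0.4.2 (30 principal components, resolution 0.8), with 28 Mmp, Timp, Adam and Adamts genes left out of 3000 variable genes. Counts were summed per culture and class of at least 10 cells. Sums were tested with edgeR 4.0.16 (R 4.3.3) by the quasi-likelihood test with TMM factors, the default filter on low counts, and Benjamini-Hochberg adjustment over all genes tested. The threshold was an adjusted p under 0.1. Limits for 0 counts used 3 counts. Figures used matplotlib 3.10.9. DESeq2 1.42.0, other filters, scalings, cell thinning and omitted cultures were alternatives. The script was tested on simulated data. The genes named are the members, genes of fixed lists of matrix breakdown, and the 3 genes most like each member. Members and lists were chosen with earlier results of these data known.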

Additional observations from a re-analysis of the deposited data

Results flagged for a closer look

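The change with Dmp1 deletion differed between the WT and the Fgf23cKO background for 8 of 8 members tested in macrophage-like cells, 4 of 8 in stromal cells, 2 of 7 in osteoprogenitor-like cells, 1 of 8 in pre-osteoblast-like cells and 6 of 8 in whole cultures, by the interaction term of the edgeR fit over all genes. The interaction passed for 61.9% of all genes tested in macrophage-like, 18.7% in stromal, 1.79% in osteoprogenitor-like and 6.35% in pre-osteoblast-like cells and 56.2% in whole cultures. Levels read as background, or for Mmp13 not told apart from it, gave 6 of these. They were Mmp13 at -0.69, Timp1 at -0.75 and Timp3 at -2.36 in macrophage-like cells, and Mmp12 in stromal, osteoprogenitor-like and pre-osteoblast-like cells. Of the macrophage-like values, Mmp12 changed by 2.08 on the log2 scale with Dmp1 deletion in the WT background and by -0.76 in the Fgf23cKO background, a difference of -2.84 ± 0.30 (SE, adjusted p = 9.293e-07). For Mmp14 the changes were -1.91 and 0.46, a difference of 2.37 ± 0.21 (adjusted p = 1.699e-07). For Mmp19 they were -0.34 and 0.36, a difference of 0.71 ± 0.20 (adjusted p = 0.005778). For Timp2 they were 0.10 and -0.33, a difference of -0.44 ± 0.07 (adjusted p = 8.714e-05), and its direction in the WT background turns with the scaling. For Mmp2, at a low level there, they were -1.05 and 0.38, a difference of 1.43 ± 0.22 (adjusted p = 4.426e-05). Cluster 3, almost wholly Dmp1KO, is part of these 5 values. In stromal cells, Timp3 changed by 0.78 and -0.80, a difference of -1.59 ± 0.27 (adjusted p = 0.005283). Timp2 changed by 0.30 and -0.49, a difference of -0.79 ± 0.19 (adjusted p = 0.02276), and Mmp2 by -0.22 and 0.39, a difference of 0.61 ± 0.20 (adjusted p = 0.0707). In osteoprogenitor-like cells, Mmp14 changed by -0.84 and 1.18, a difference of 2.02 ± 0.49 (adjusted p = 0.06269). In whole cultures the difference was -2.91 ± 0.30 for Mmp12, 2.01 ± 0.23 for Mmp14, 1.71 ± 0.38 for Mmp2, 1.57 ± 0.73 for Mmp13, 0.66 ± 0.20 for Mmp19 and -0.42 ± 0.11 for Timp2. Each genotype was 1 droplet reaction, so these differences and those between reactions cannot be told apart.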

How the results depend on the processing

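Of the member values that passed, 27 of 32 in macrophage-like, 8 of 32 in stromal, 14 of 28 in osteoprogenitor-like, 6 of 32 in pre-osteoblast-like sums and 17 of 32 in whole cultures, 13, 3, 2, 2 and 10 kept direction and side of the threshold under all alternatives. The 13 include macrophage-like Timp3 in every mutant genotype, Timp1 in Fgf23cKO and Mmp13 in Dmp1KO against WT. These levels are read as background or, for Mmp13, not told apart from it. Mmp12, read as background outside macrophages, is among the stromal, osteoprogenitor-like and pre-osteoblast-like values that held. Thinning to 1000 UMIs, without cells of fewer UMIs, left 11 macrophage-like, 5 stromal, 2 osteoprogenitor-like and 1 pre-osteoblast-like calls. Clustering at resolution 0.4 left 5 stromal calls. In pre-osteoblast-like sums, a threshold of 0.05 left 3, sums of at least 20 cells 2, and adding untagged cells gave 10. Leaving out 1 culture at a time gave 25 to 29 calls in macrophage-like, 6 to 11 in stromal, 10 to 15 in osteoprogenitor-like, 3 to 7 in pre-osteoblast-like sums and 15 to 18 in whole cultures. Chosen after seeing the data, leaving out cluster 3 turned macrophage-like Mmp12 (-1.23) and Timp2 (-0.21) in Dmp1KO against WT and Timp2 (0.0744) in Dmp1KO/Fgf23cKO against Dmp1KO. Scaling by library totals, also chosen then, turned the Timp2 values to -0.16 and 0.0477. Thinning turned macrophage-like Timp1 in Dmp1KO (-0.38) and osteoprogenitor-like Timp2 in Fgf23cKO (-0.13) against WT. Resolution 0.4 turned Mmp12, read as background, in stromal cells of Fgf23cKO (-0.48) and in osteoprogenitor-like cells of Dmp1KO (-0.10) and Dmp1KO/Fgf23cKO (-3.73). The cause was not tested. Culture numbers were not used as pairs. Same-numbered cultures deviated together, with r over 0.1, in 0 of 15 pairs in macrophage-like sums, 1 of 15 in stromal sums and 4 of 15 in whole cultures. Differently numbered cultures did so in 3, 6 and 13 of 30 pairs. With the replicate block, 26 macrophage-like, 7 stromal, 17 osteoprogenitor-like, 5 pre-osteoblast-like and 17 whole-culture values passed. Low counts limit osteoprogenitor-like values, whose cells had a median of 2814 UMIs.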

Other observations

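Cells without a tag, not used in the tests above, gave values by genotype from the same 4 droplet reactions and are not independent cultures. In their macrophage-like cells, Mmp12 stood at 598 CPM in WT, 325 in Fgf23cKO, 2491 in Dmp1KO and 156 in Dmp1KO/Fgf23cKO. Mmp14 there stood at 121, 92.4, 27.9 and 127, with Dmp1KO lowest. In their stromal cells, Timp3 stood at 604 in WT, 2471 in Fgf23cKO, 1951 in Dmp1KO and 1282 in Dmp1KO/Fgf23cKO, with WT lowest and Fgf23cKO highest.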
